A study of Homo sapiens with 66 samples.

Results

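Small nucleolar RNA (snoRNA) host genes whose spliced RNA is degraded by nonsense-mediated decay (NMD) were examined in human monocytic THP-1 leukemia cells in which HNRNPC, ADAR, or both had been targeted with CRISPR/Cas9. The 8 members, GAS5, SNHG1, SNHG5, SNHG8, SNHG12, SNHG15, ZFAS1, and EPB41L4A-AS1, were chosen by name as known noncoding hosts and found by their Ensembl identifiers, 8 of the 57820 genes in the count tables. All 8 were counted in every library and passed the filter on low counts in both RNA-seq studies.

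Study 1 used a STING-deficient, Cas9-transgenic THP-1 line that was a single clone, nucleofected with guide RNAs (gRNAs) against HNRNPC (hnRNPC-targeted), ADAR (ADAR-targeted), both (ADAR+hnRNPC-targeted), or GFP, or with a nontarget gRNA (CTRL). Total RNA of these 5 groups was taken on days 3, 4, and 5, and CTRL cells treated with IFN-α for 24 h were added on day 4, which made 16 groups of 3 libraries. Study 2 used a wild-type, Cas9-transgenic THP-1 clone and other gRNAs against the same genes, on day 4, in 9 groups of 2 libraries. It held total RNA and cytosolic (digitonin-soluble) RNA of CTRL, hnRNPC-, ADAR-, and ADAR+hnRNPC-targeted cells, and the digitonin-insoluble, nucleus-enriched RNA of hnRNPC-targeted cells alone. Every cell of both studies carried Cas9, and every cell of study 1, the controls included, lacked STING, the adaptor of the cytosolic DNA sensor. The study describes the libraries of a group as independent experiments, and the labels do not say whether a replicate number marks the same experiment in every group.

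snoRNAs guide the chemical modification of ribosomal and small nuclear RNA, box C/D snoRNAs the methylation of ribose and box H/ACA snoRNAs the conversion of uridine to pseudouridine. They are cut from introns, and their noncoding hosts are spliced so that the introns are released, whereas the joined exons hold only short open reading frames. Ribosomes that read those frames stop early, UPF1-dependent NMD degrades the spliced RNA, and such hosts are therefore known to accumulate when NMD or translation is slowed. Many hosts start with a run of pyrimidines (a 5′ terminal oligopyrimidine tract), the feature by which growth signals control the translation of ribosomal protein mRNAs.

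All 8 members are annotated as long noncoding RNAs. On GRCh37, the 5 on the minus strand are SNHG12 at chr1:28905050-28909644, GAS5 at chr1:173827697-173838020, SNHG5 at chr6:86360209-86388650, SNHG15 at chr7:45022618-45026560, and SNHG1 at chr11:62619450-62623425. The others, SNHG8 at chr4:119199858-119206471, EPB41L4A-AS1 at chr5:111496223-111500515, and ZFAS1 at chr20:47894715-47916137, lie on the plus strand. RefSeq places 31 snoRNAs inside them, 24 of box C/D and 7 of box H/ACA. GAS5 holds 11 of these, SNHG1 8, SNHG12 4, ZFAS1 3, SNHG5 2, and SNHG8, SNHG15, and EPB41L4A-AS1 1 each.

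Start sites of 4 members are shown because the pyrimidine run is a feature that the choice of members did not use. Each line gives 20 bases before and 25 bases from the first transcribed base (RefSeq, GRCh38.p14), and capitals mark a C followed by at least 4 pyrimidines that began within 10 bases of that start.
SNHG5, chr6:85678709-85678753, minus strand: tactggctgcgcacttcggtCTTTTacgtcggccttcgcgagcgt
ZFAS1, chr20:49278622-49278666, plus strand: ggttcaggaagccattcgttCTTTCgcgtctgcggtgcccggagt
SNHG12, chr1:28581849-28581893, minus strand: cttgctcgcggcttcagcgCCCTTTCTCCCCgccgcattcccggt
SNHG8, chr4:118278742-118278786, plus strand: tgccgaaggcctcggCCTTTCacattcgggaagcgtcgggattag
The annotated first base of SNHG5, ZFAS1, and SNHG12 was a C with such a run, 3 of the 7 members with a RefSeq window, compared with 4.07% of 35116 RefSeq promoters. Within 10 bases of the start, 4 of 7 had one, compared with 31.4% of promoters. The search was on the transcribed strand only, and GAS5, SNHG1, and EPB41L4A-AS1 had no match in this window. That does not show that they lack such a run, since 1 annotated start per member was searched with a rule for unbroken runs. On GRCh37 the canonical GAS5 transcript starts at chr1:173837127, inside the end of its locus at 173838020. Whether the RefSeq windows hold the starts used in these cells was not tested.

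The snoRNAs whose own gene entries could be matched in the count table are shown because their counts are compared with those of their hosts below. They are given from GRCh37 in 5′ to 3′ direction, and capitals mark exact matches to the C box (TGATGA), the D box (CTGA), or, in the H/ACA snoRNA SNORA13, the ACA.
SNORD78, in GAS5, chr1:173834760-173834824, minus strand: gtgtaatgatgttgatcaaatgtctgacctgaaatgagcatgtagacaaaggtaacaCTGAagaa
SNORD99, in SNHG12, chr1:28905261-28905334, minus strand: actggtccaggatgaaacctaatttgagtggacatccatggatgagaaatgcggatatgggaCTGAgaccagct
SNORD12C, in ZFAS1, chr20:47895477-47895565, plus strand: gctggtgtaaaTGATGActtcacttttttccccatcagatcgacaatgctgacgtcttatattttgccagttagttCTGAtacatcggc
SNORD12B, in ZFAS1, chr20:47896856-47896946, plus strand: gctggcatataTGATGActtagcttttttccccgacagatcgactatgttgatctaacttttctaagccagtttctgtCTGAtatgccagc
SNORD12, in ZFAS1, chr20:47897220-47897309, plus strand: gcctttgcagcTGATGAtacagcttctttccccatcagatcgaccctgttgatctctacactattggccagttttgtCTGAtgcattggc
SNORA13, in EPB41L4A-AS1, chr5:111497182-111497314, plus strand: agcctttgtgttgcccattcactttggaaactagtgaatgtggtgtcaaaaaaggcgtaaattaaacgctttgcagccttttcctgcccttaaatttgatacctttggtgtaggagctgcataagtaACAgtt

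Total counts on genes lay between 95107690 and 152829008 per library in study 1 and between 49666958 and 73873756 in study 2. Of these, the 8 members together made up 0.0537 to 0.105% in study 1 and 0.0380 to 0.0724% in study 2. HNRNPC RNA fell in hnRNPC-targeted cells of study 1 (log2 fold change −1.09, −1.18, and −1.40 on days 3, 4, and 5), whereas ADAR RNA of ADAR-targeted cells in that study was not past the test (−0.19, −0.13, and −0.03), so that counts alone do not check this label. In study 2, ADAR fell by 0.77 in total and 1.06 in cytosolic RNA on the log2 scale. Of the defining monocyte markers, CD14 (0.0991 to 3.93 counts per 1000000 counts on genes, CPM) and CD68 (0 to 0.292 CPM) were near 0 in study 1, whereas the 10 monocyte markers together summed to 435 to 959 CPM, and the markers of other cell types summed to 7.12 to 14.1 CPM. Of 8 monocyte markers tested in ADAR+hnRNPC-targeted cells of day 5, 4 were higher (ITGAM, log2 fold change 2.31) and 3 lower (CD4, −0.82), and of 2 markers of other cell types 1 was lower (NKG7, −0.82).

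The members did not move together over the 5 d. Levels are given as CPM, scaled by the trimmed mean of M-values (TMM), which are shares of the RNA in a library, so that fewer cells with a high level and less RNA per cell cannot be told apart. The change between groups was tested on the counts with edgeR's quasi-likelihood test in 1 model per study, and a gene was past the test at a Benjamini-Hochberg adjusted p of at most 0.05 over all genes tested.

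Among the gRNA groups of study 1, the most members were called in ADAR+hnRNPC-targeted cells of day 5. Against CTRL cells of that day, 6 of the 8 members were higher, where 34.5% of the 13187 genes tested were higher and 39% were lower. The median log2 fold change of the 8 was 0.46, and that of all genes tested was −0.04. SNHG12, ZFAS1, EPB41L4A-AS1, SNHG15, SNHG8, and GAS5 were past the test, and SNHG1 and SNHG5 were not.

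SNHG12, which holds 1 box C/D and 3 box H/ACA snoRNAs, had the largest change of the 8. CTRL libraries of day 5 held 26.3, 23.5, and 20.7 CPM of SNHG12, and ADAR+hnRNPC libraries held 58.2, 57.3, and 58.8 CPM. The groups did not overlap. hnRNPC-targeted (30.1, 27.4, and 27.9 CPM) and ADAR-targeted libraries (31.6, 28.4, and 26.9 CPM) also lay above all CTRL libraries, by less, and overlapped GFP (28.2, 25.3, and 26.8 CPM). Neither single targeting was past the test without a block. With both genes targeted, the increase was 2.47-fold (log2 fold change 1.31, SE 0.182, edgeR adjusted p = 5.24e-08). SNHG12 was the 1 member that also passed a 2-fold threshold, where 9.38% of genes tested were higher by that rule.

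ZFAS1, named for the gene ZNFX1 that it faces, is the host of the SNORD12 family. It held 90.4, 100.6, and 95.8 CPM in CTRL cells of day 5 and 176, 160.5, and 169 CPM in ADAR+hnRNPC-targeted cells. These did not overlap, whereas hnRNPC-targeted libraries (105, 114, and 97.3 CPM) and ADAR-targeted libraries (109, 99.8, and 100.5 CPM) overlapped CTRL. The log2 fold change with both genes targeted was 0.82 (SE 0.0944, edgeR adjusted p = 7.62e-10).

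EPB41L4A-AS1, the host of SNORA13, rose as much and was the 1 member that also rose on day 5 when hnRNPC alone was targeted. CTRL libraries held 19.2, 18.1, and 19.1 CPM, hnRNPC-targeted libraries 28.2, 26.5, and 25.8 CPM, and ADAR+hnRNPC libraries 35.1, 33.1, and 31.9 CPM. None of the 3 groups overlapped. The log2 fold change was 0.52 with hnRNPC targeted (SE 0.0772, edgeR adjusted p = 3.75e-07) and 0.83 with both (SE 0.0774, adjusted p = 4.18e-12), and 29.5% of genes tested were higher in hnRNPC-targeted cells.

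SNHG15, the host of SNORA9, held 35.8, 32.8, and 31.5 CPM in CTRL cells of day 5, 30.9, 30.7, and 28.1 CPM in hnRNPC-targeted cells, and 50.8, 47.2, and 50.5 CPM in ADAR+hnRNPC-targeted cells. The last group lay above all others. The log2 fold change was 0.57 (SE 0.0997, edgeR adjusted p = 3.86e-06). SNHG8, the host of SNORA24, held 70.1, 65.1, and 66.9 CPM in CTRL and 91.1, 84.4, and 83.4 CPM in ADAR+hnRNPC libraries, which did not overlap (log2 fold change 0.36, SE 0.0795, adjusted p = 0.000129).

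GAS5, which was named for its accumulation in growth-arrested cells and holds more of the snoRNAs than any other member, changed least of the 6. Its CTRL libraries of day 5 held 229.7, 227, and 222 CPM and its ADAR+hnRNPC libraries 289, 257, and 269 CPM, without overlap (log2 fold change 0.26, SE 0.115, edgeR adjusted p = 0.0395). Leaving out any CTRL library, or ADAR+hnRNPC replicate 1 or 3, ended this call (edgeR adjusted p up to 0.133), whereas its log2 fold change stayed between 0.22 and 0.30.

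SNHG1 and SNHG5 were not past the test. Both host box C/D snoRNAs only, as does ZFAS1, which was past it. SNHG1 held 123, 103, and 101 CPM in CTRL and 124, 109, and 114 CPM in ADAR+hnRNPC libraries of day 5 (log2 fold change 0.08, 95% interval −0.26 to 0.43, edgeR adjusted p = 0.669). SNHG5 held 138, 148, and 145 CPM in CTRL and 151, 138, and 129 CPM in ADAR+hnRNPC libraries (log2 fold change −0.04, 95% interval −0.19 to 0.11, adjusted p = 0.634). Both pairs of groups overlapped, and the interval of SNHG1 leaves room for a change as large as that of SNHG8.

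**Figure D1:**
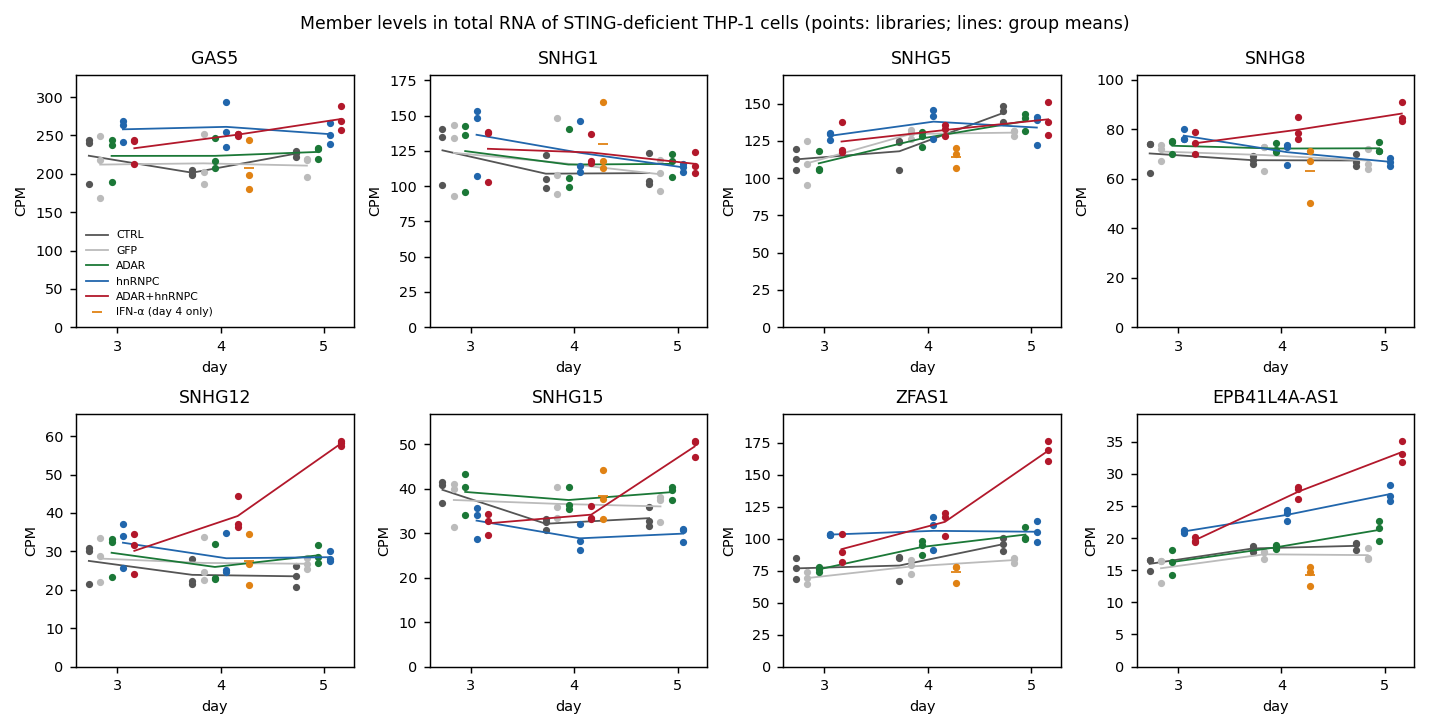
Level of each of the 8 host genes in study 1 (y axis, CPM) on days 3, 4, and 5 (x axis). Points are single libraries, lines join the means of each gRNA group, and orange points with a dash are CTRL cells with IFN-α on day 4. SNHG12, ZFAS1, EPB41L4A-AS1, and SNHG15 in ADAR+hnRNPC-targeted cells of day 5 stand above all other groups, with means of 58.1, 169, 33.4, and 49.5 CPM.

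In ADAR-targeted cells of study 1, edgeR called 0 of the 8 on any day, where 0%, 0.554%, and 4.45% of genes tested were higher on days 3, 4, and 5. At an unadjusted p under 0.05 there were 0, 2, and 2 members, and limma-voom and DESeq2 also called 0. With the replicate number as a block, SNHG15 was higher on day 5 (log2 fold change 0.23, edgeR adjusted p = 0.0099), with 40.4, 39.8, and 37.5 CPM. GFP-targeted cells gave 0 members by edgeR, limma-voom, and DESeq2 on all 3 d and 0, 0, and 1 at an unadjusted p under 0.05, where 0.0303%, 0.0227%, and 5.36% of genes were higher.

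hnRNPC targeting alone gave 2 higher and 1 lower member on day 3, 4 higher on day 4, and 1 higher, EPB41L4A-AS1, on day 5. With the replicate number as a block, SNHG15 was also lower on day 4 (log2 fold change −0.16, edgeR adjusted p = 0.0282) and on day 5 (−0.16, adjusted p = 0.0239), and SNHG12 was higher on day 5 (0.29, adjusted p = 0.0299). On day 3, ZFAS1 (log2 fold change 0.43, edgeR adjusted p = 0.00044) and EPB41L4A-AS1 (0.40, adjusted p = 0.000105) were higher, where 12.6% of genes tested were higher. CTRL libraries of day 3 held 68.1 to 85.2 CPM of ZFAS1 and hnRNPC-targeted libraries 103 to 104 CPM, without overlap. SNHG15 was lower, with 36.7 to 41.6 CPM in CTRL and 28.7 to 35.7 CPM in hnRNPC-targeted libraries (log2 fold change −0.28, edgeR adjusted p = 0.0269), where 25.4% of genes were lower. The lower SNHG15 was lost without CTRL replicate 1 or 2 or hnRNPC replicate 3 (edgeR adjusted p up to 0.181), and when library totals were used without a scaling factor.

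On day 4, 4 members were higher in hnRNPC-targeted cells, where 23.4% of genes tested were higher: GAS5 (log2 fold change 0.38), ZFAS1 (0.43), EPB41L4A-AS1 (0.36), and SNHG5 (0.22, edgeR adjusted p = 0.0146). Without hnRNPC replicate 1 the count was 2, since GAS5 (edgeR adjusted p = 0.064) and SNHG5 (up to 0.14, also lost without hnRNPC replicate 2 or CTRL replicate 1) were no longer past the test. ADAR+hnRNPC-targeted cells of day 4 had 5 higher members, where 25.5% of genes were higher, and 4 of these had a larger estimate on day 5. SNHG12 held 27.9, 22.3, and 21.5 CPM in CTRL and 44.3, 36.2, and 37.0 CPM in ADAR+hnRNPC libraries of day 4 (log2 fold change 0.72, edgeR adjusted p = 0.000938). ZFAS1 (0.52), EPB41L4A-AS1 (0.57), GAS5 (0.32), and SNHG8 (0.24, lost without ADAR+hnRNPC replicate 3 at adjusted p = 0.06) were the others.

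In ADAR+hnRNPC-targeted cells of day 3, which share their CTRL libraries with the hnRNPC comparison, ZFAS1 (log2 fold change 0.26, edgeR adjusted p = 0.0366) and EPB41L4A-AS1 (0.30, adjusted p = 0.00315) were higher, where 12% of genes tested were higher, and SNHG15 was lower (−0.30, adjusted p = 0.0198), where 16.7% were lower. The call of ZFAS1 was lost without CTRL replicate 2 or 3 or ADAR+hnRNPC replicate 1 or 2 (edgeR adjusted p up to 0.272). That of SNHG15 was lost without CTRL replicate 1 or 2 or ADAR+hnRNPC replicate 3 (adjusted p up to 0.102).

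The difference between days was tested as the change of the ADAR+hnRNPC response from day 3 to day 5. It was larger on day 5 for 5 members, where 26.5% of genes tested had a larger response. SNHG12 moved by 1.17 on the log2 scale (SE 0.255, edgeR adjusted p = 0.000174), SNHG15 by 0.87 (SE 0.141, adjusted p = 2.14e-06), ZFAS1 by 0.56 (SE 0.133, adjusted p = 0.000485), and EPB41L4A-AS1 by 0.53 (SE 0.109, adjusted p = 9.34e-05). SNHG8 moved by 0.28 (SE 0.112, edgeR adjusted p = 0.0364), a call that ended when CTRL replicate 1 or 2 or ADAR+hnRNPC replicate 2 or 3 of day 3, or CTRL replicate 2 or 3 or ADAR+hnRNPC replicate 1 of day 5, was left out (adjusted p up to 0.0979). Of the hnRNPC response alone, SNHG5 had a smaller value on day 5 (−0.29, SE 0.109, adjusted p = 0.0271), where 23.9% of genes had one. That call ended without replicate 3 of CTRL or hnRNPC of day 3, CTRL replicate 2, or hnRNPC replicate 3 of day 5 (edgeR adjusted p up to 0.0971).

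CTRL cells themselves changed between days 3 and 5. SNHG5 (log2 fold change 0.35, edgeR adjusted p = 0.000994), ZFAS1 (0.32, adjusted p = 0.0121), and EPB41L4A-AS1 (0.23, adjusted p = 0.0247) were higher on day 5, where 9.96% of genes tested were higher. Without CTRL replicate 3 of day 3 only SNHG5 was past the test, and ZFAS1 was also lost without CTRL replicate 2, and EPB41L4A-AS1 without CTRL replicate 3, of day 5 (edgeR adjusted p up to 0.0939 and 0.129). Each gRNA group was therefore compared with CTRL cells of its own day.

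Whether targeting both genes gave more than the sum of both single targetings was tested by the interaction on the log2 scale. On day 5 it was positive for 4 members, where 23.9% of genes tested had a positive and 23.7% a negative interaction. The values were 0.73 for SNHG12 (SE 0.255, edgeR adjusted p = 0.0177), 0.57 for ZFAS1 (SE 0.133, adjusted p = 0.000553), 0.49 for SNHG15 (SE 0.141, adjusted p = 0.00391), and 0.27 for SNHG8 (SE 0.112, adjusted p = 0.0477). EPB41L4A-AS1, which rose with hnRNPC targeting alone, had an interaction of 0.14 that was not past the test (95% interval −0.08 to 0.35, edgeR adjusted p = 0.319).

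Without CTRL replicate 1, the interaction of SNHG12 ended (edgeR adjusted p = 0.0522) and 2 members were left. That of SNHG8 also ended without CTRL replicate 3, any hnRNPC library, ADAR replicate 2 or 3, or ADAR+hnRNPC replicate 1 or 2 (adjusted p up to 0.117), with library totals and no factor, and without the filter on low counts. On days 3 and 4, edgeR called the interaction of 0 members, with 0 at an unadjusted p under 0.05 and 0 by limma-voom and DESeq2, where 0% and 4.69% of genes had a positive interaction. Compared with ADAR-targeted cells of day 5, ADAR+hnRNPC-targeted cells had 5 higher members, where 32.8% of genes tested were higher, namely SNHG12 (log2 fold change 1.00), ZFAS1 (0.71), EPB41L4A-AS1 (0.65), SNHG15 (0.33), and SNHG8 (0.26).

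With IFN-α, 1 member was past the test, and it was lower. With the replicate number as a block, SNHG15 was also higher (log2 fold change 0.25, edgeR adjusted p = 0.00325). EPB41L4A-AS1 fell in IFN-α-treated cells, with 15.5, 14.8, and 12.5 CPM against 17.9, 18.7, and 18.5 CPM in CTRL cells of day 4 (log2 fold change −0.37, edgeR adjusted p = 0.00071), where 7.19% of genes tested were lower. The 2 groups did not overlap, and the fall was opposite in direction to the rise in ADAR+hnRNPC-targeted cells. A fit of these 2 groups alone did not call it. The other 7 were not past the test. SNHG12 held 21.4 to 34.5 CPM with IFN-α and 21.5 to 27.9 CPM in CTRL cells, and ZFAS1 65.1 to 78.0 and 66.6 to 85.7 CPM.

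**Figure D2:**
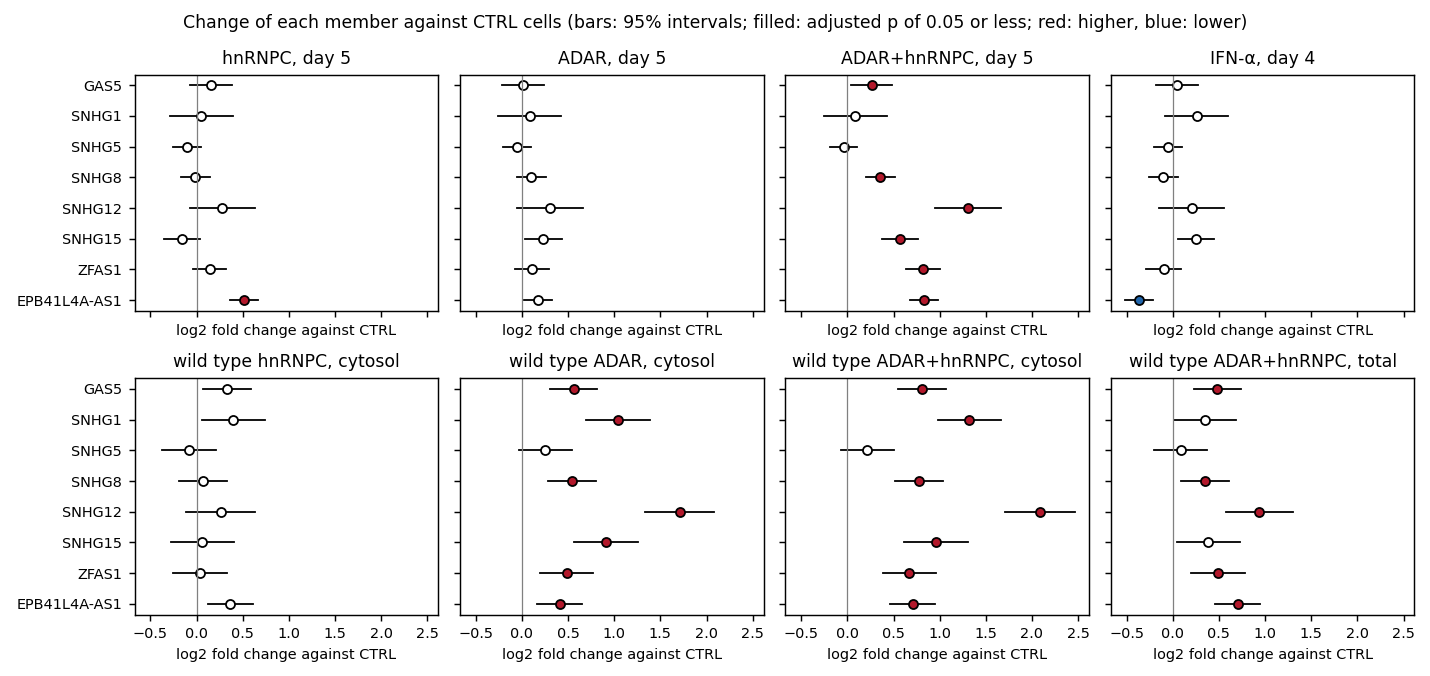
Log2 fold change against the matching CTRL cells (x axis) of the 8 host genes (y axis) in 4 comparisons of study 1 and 4 of study 2. Points are edgeR estimates, bars are 95% intervals, and filled points are past the test. In the cytosol of ADAR+hnRNPC-targeted wild-type cells, 7 of the 8 points are filled and SNHG12 lies at 2.09, whereas with IFN-α EPB41L4A-AS1 alone is filled, at −0.37.

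In the wild-type clone of study 2, the members were higher with ADAR targeting alone too, in both compartments. In cytosolic RNA, 7 of the 8 were higher in ADAR+hnRNPC-targeted than in CTRL cells, where 20.1% of the 13637 genes tested were higher, and the median log2 fold change of the 8 was 0.79 compared with −0.07 for all genes. In ADAR-targeted cells 7 were higher as well, where 16.1% of genes were higher, with a median of 0.55 compared with 0.00 for all genes. Both comparisons share their CTRL libraries.

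SNHG12 again changed most. Its cytosolic RNA held 7.18 and 8.86 CPM in CTRL, 7.30 and 11.9 CPM in hnRNPC-targeted, 25.7 and 26.6 CPM in ADAR-targeted, and 33.8 and 34.5 CPM in ADAR+hnRNPC-targeted libraries. The last 2 groups stood apart from the first 2, with increases of 3.26-fold (log2 fold change 1.71, edgeR adjusted p = 7.78e-06) and 4.26-fold (2.09, adjusted p = 5.62e-07).

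SNHG1, which had shown no call in study 1, followed the same order. Cytosolic CTRL libraries held 37.0 and 46.1 CPM, hnRNPC-targeted 46.6 and 62.8 CPM, ADAR-targeted 76.3 and 94.6 CPM, and ADAR+hnRNPC-targeted 95.01 and 113 CPM. hnRNPC-targeted libraries began just above CTRL, and both ADAR-targeted groups lay above those. The log2 fold change was 1.04 for ADAR (edgeR adjusted p = 0.000388) and 1.32 for ADAR+hnRNPC (adjusted p = 2.45e-05).

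The other members rose less. SNHG15 held 25.3 and 27.7 CPM in cytosolic CTRL, 51.9 and 47.8 CPM in ADAR-targeted, and 51.6 and 51.6 CPM in ADAR+hnRNPC-targeted libraries, log2 fold changes of 0.91 (edgeR adjusted p = 0.00119) and 0.96 (adjusted p = 0.000429). With both genes targeted, GAS5 rose by 0.81, SNHG8 by 0.78, EPB41L4A-AS1 by 0.71, and ZFAS1 by 0.67 on the log2 scale (edgeR adjusted p from 0.000152 to 0.00197). SNHG5 held 125 and 111 CPM in CTRL and 135 and 138 CPM in ADAR+hnRNPC-targeted libraries (log2 fold change 0.22, 95% interval −0.07 to 0.51, adjusted p = 0.251). Leaving out any 1 library kept 7 members past the test for ADAR+hnRNPC-targeted cells, and the same for ADAR-targeted cells gave between 4 and 5. EPB41L4A-AS1 was lost without any of the 4 libraries (edgeR adjusted p up to 0.147), ZFAS1 without either CTRL library or ADAR replicate 1 (up to 0.282), GAS5 without CTRL replicate 2 or ADAR replicate 1 (up to 0.0887), and SNHG8 without CTRL replicate 1 or ADAR replicate 2 (up to 0.0702).

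MALAT1 and NEAT1, nuclear RNAs that mark the nuclear content of a cytosolic preparation, summed to 825 to 1020 CPM in cytosolic CTRL libraries, 802 to 1050 in hnRNPC-targeted, 575 to 600 in ADAR-targeted, and 418 to 474 in ADAR+hnRNPC-targeted libraries. The cytosolic libraries with the most SNHG12 and SNHG1 thus held the least of these nuclear RNAs. The part of this difference in the members' values was not tested.

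In total RNA of study 2, 6 members were higher in ADAR-targeted cells, where 9.02% of genes tested were higher, and 5 in ADAR+hnRNPC-targeted cells, where 12.4% were higher. SNHG12 held 18.1 and 16.8 CPM in CTRL, 31.4 and 27.9 CPM in ADAR-targeted, and 35.1 and 31.7 CPM in ADAR+hnRNPC-targeted libraries, without overlap of CTRL with either. Its log2 fold changes were 0.77 (edgeR adjusted p = 0.0129) and 0.94 (adjusted p = 0.0013). The remaining values for ADAR-targeted cells lay between 0.46 (GAS5) and 0.68 (SNHG15), with SNHG8, ZFAS1, and EPB41L4A-AS1 between them, and for ADAR+hnRNPC-targeted cells between 0.35 (SNHG8) and 0.70 (EPB41L4A-AS1), with GAS5 and ZFAS1 between them.

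These total RNA counts depended on single libraries. Leaving out 1 of the 4 libraries in turn gave between 1 and 8 members for ADAR-targeted cells, and the count moved by over 1.5 times without CTRL replicate 2, ADAR replicate 1, or ADAR replicate 2. Each of the 6 calls could be lost in this way (edgeR adjusted p up to 0.182 for GAS5). For ADAR+hnRNPC-targeted cells it lay between 2 and 6, and moved by over 1.5 times without CTRL replicate 2 or ADAR+hnRNPC replicate 1, with the calls of ZFAS1 (up to 0.17), SNHG8 (up to 0.175), and GAS5 (0.081) lost. hnRNPC targeting alone raised 1 member in total RNA, EPB41L4A-AS1 (log2 fold change 0.52, edgeR adjusted p = 0.0281), where 2.08% of genes were higher. That count lay between 0 and 4 when 1 library was left out, and changed without either CTRL library or hnRNPC replicate 2. In cytosolic RNA of hnRNPC-targeted cells edgeR and limma-voom called 0 members and DESeq2 2, with 3 at an unadjusted p under 0.05, where 0.719% of genes were higher.

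Whether the response differed between cytosol and total RNA was tested directly. With both genes targeted, the response was larger in the cytosol for SNHG12 by 1.15 (SE 0.262, edgeR adjusted p = 0.0143) and for SNHG1 by 0.97 (SE 0.245, adjusted p = 0.0286) on the log2 scale, where 4.28% of genes tested had a larger cytosolic response. The call of SNHG12 was lost without cytosolic CTRL replicate 1 or cytosolic ADAR+hnRNPC replicate 2 (edgeR adjusted p up to 0.096). That of SNHG1 was lost without the same libraries, total CTRL replicate 1, or either total ADAR+hnRNPC library (adjusted p up to 0.156). For ADAR targeting the same difference, a test added after the values were seen, was 0.94 for SNHG12 (edgeR adjusted p = 0.0927) and 0.58 for SNHG1 (adjusted p = 0.393), where 1.66% of genes were past it. edgeR called 0 members for ADAR and 0 for hnRNPC, with 2 and 0 at an unadjusted p under 0.05, 0 and 0 by limma-voom, and 1 and 0 by DESeq2.

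**Figure D3:**
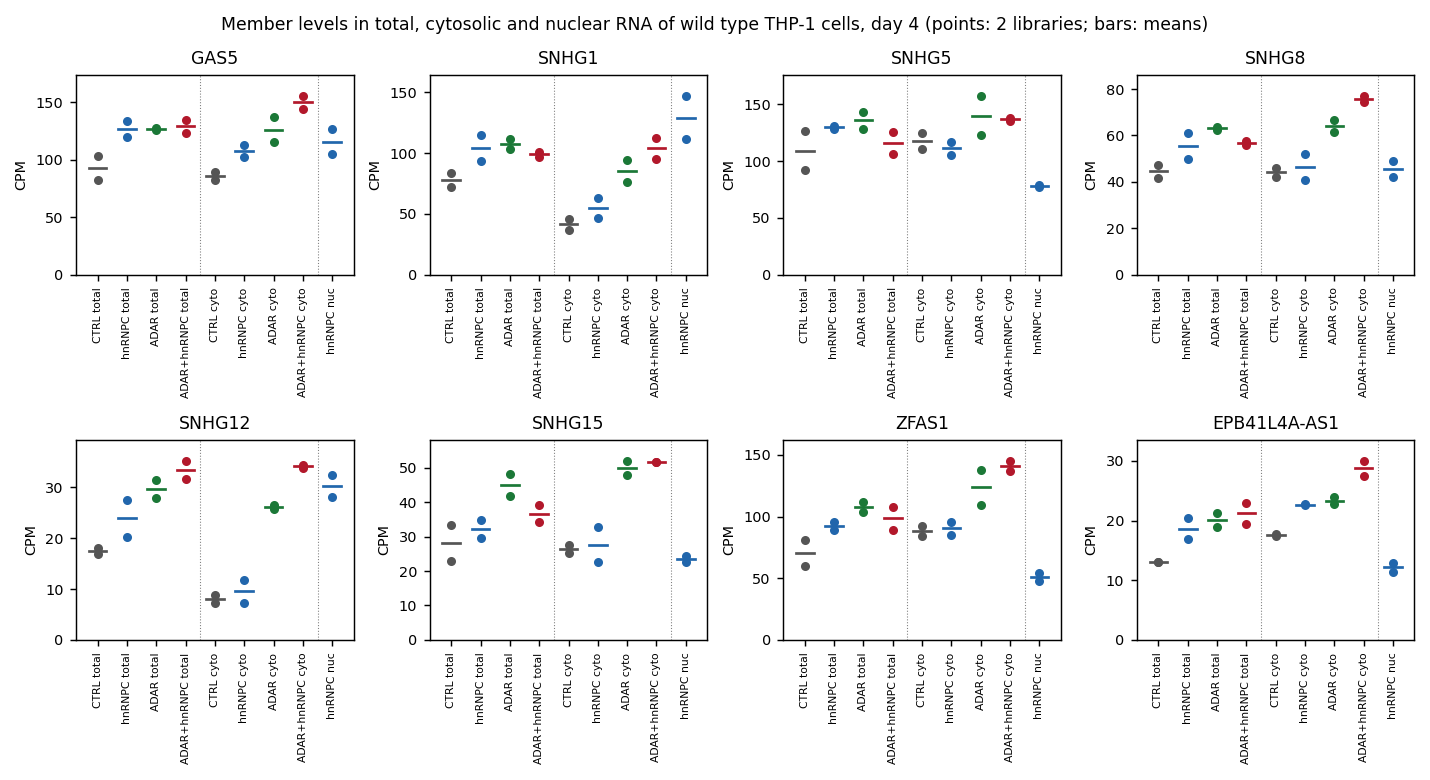
Level of the 8 host genes in study 2 (y axis, CPM) in total, cytosolic, and nuclear RNA by gRNA group (x axis). Points are the 2 libraries of a group and bars their mean. SNHG12 and SNHG1 are low in the cytosol of CTRL and hnRNPC-targeted cells, with CTRL means of 8.02 and 41.5 CPM, and reach 34.1 and 104 CPM in ADAR+hnRNPC-targeted cells.

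The members differed in where their RNA lay. As a mean over the 4 gRNA groups, SNHG12 (log2 difference −0.65, edgeR adjusted p = 8.19e-06) and SNHG1 (−0.52, adjusted p = 3.83e-05) were lower in cytosolic than in total RNA, where 27.1% of genes tested were lower. The groups differed in this. SNHG12 had cytosolic and total means of 8.02 and 17.45 CPM in CTRL but 34.1 and 33.4 CPM in ADAR+hnRNPC-targeted cells. Those of SNHG1 were 41.5 and 77.8 CPM in CTRL and 104 and 99.1 CPM in ADAR+hnRNPC-targeted cells. EPB41L4A-AS1 (0.34, adjusted p = 0.000103) and ZFAS1 (0.25, edgeR adjusted p = 0.0051) were higher in cytosolic RNA, where 49.3% of genes were higher. GAS5, SNHG5, SNHG8, and SNHG15 lay between −0.04 and 0.08 and were not past the test.

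Nuclear RNA, available for hnRNPC-targeted cells, gave the same sides with larger differences. SNHG12 held 32.4 and 28.2 CPM in nuclear and 7.30 and 11.9 CPM in cytosolic libraries (log2 difference −1.65, edgeR adjusted p = 8.8e-07), and SNHG1 held 147 and 111 CPM in nuclear and 46.6 and 62.8 CPM in cytosolic libraries (−1.24, adjusted p = 8.76e-06), where 25.7% of genes tested were lower in the cytosol. Cytosolic levels were higher for EPB41L4A-AS1 (0.90, edgeR adjusted p = 8.31e-06), ZFAS1 (0.83, adjusted p = 0.000101), and SNHG5 (0.51, adjusted p = 0.0053), where 45.2% of genes were higher. ZFAS1 held 47.4 and 54.5 CPM in nuclear libraries and 85.5 and 95.8 CPM in cytosolic ones, without overlap. DESeq2 did not call SNHG5.

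The matched snoRNAs differed in whether they moved with their hosts. Of the 31 snoRNAs inside the members, 6 had a gene entry matched by identifier, all with few counts. Reads of unspliced host and of mature snoRNA cannot be told apart in such counts, and total RNA libraries hold few RNAs as short as a snoRNA. The values below come from the fit without a filter on low counts, since SNORD99 and SNORA13 did not pass it.

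SNORD78, inside GAS5, held 2.00, 2.54, and 1.59 CPM in CTRL cells of day 5, 1.06, 1.34, and 1.09 CPM in hnRNPC-targeted cells, and 1.06, 1.05, and 1.04 CPM in ADAR+hnRNPC-targeted cells. CTRL lay above both groups, whereas the host GAS5 was higher with both genes targeted. The log2 fold change of SNORD78 was −0.81 (SE 0.219, edgeR adjusted p = 0.00143) with hnRNPC and −0.96 (SE 0.222, adjusted p = 8.33e-05) with both genes targeted. With both targeted it was also lower on day 3 (−0.73, edgeR adjusted p = 0.0167) and day 4 (−1.19, adjusted p = 1.39e-06). In total RNA of study 2 it was not lower, with 0.513 ± 0.0597 CPM in CTRL and 0.616 ± 0.182 CPM in ADAR+hnRNPC-targeted cells (SD, n = 2).

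SNORA13, inside EPB41L4A-AS1, rested on 32 to 153 counts per library over the 6 libraries compared here. It held 0.656, 1.08, and 0.469 CPM in CTRL and 0.297, 0.352, and 0.243 CPM in ADAR+hnRNPC-targeted cells, a lower level (log2 fold change −1.31, SE 0.348, edgeR adjusted p = 0.000877) beside a host that rose by 0.83 on the log2 scale. On day 3 (−0.85, edgeR adjusted p = 0.127) and day 4 (−0.34, adjusted p = 0.627) SNORA13 was not past the test, although its host was. In total RNA of study 2 it had 0.618 ± 0.00896 CPM in CTRL, 0.760 ± 0.508 CPM in hnRNPC-targeted, and 0.471 ± 0.188 CPM in ADAR+hnRNPC-targeted cells (SD, n = 2). The hnRNPC-targeted libraries lay on either side of CTRL, and the ADAR+hnRNPC-targeted ones lay just below it. SNORD12C was the 1 of 6 that rose with its host ZFAS1, from 1.31, 1.17, and 0.959 CPM to 1.74, 2.30, and 1.97 CPM (log2 fold change 0.81, SE 0.239, edgeR adjusted p = 0.00342). On days 3 (0.17) and 4 (0.34) SNORD12C was not past the test, and in total RNA of study 2 it had 1.31 ± 0.256 CPM in CTRL and 1.02 ± 0.0892 CPM with both genes targeted (SD, n = 2). SNORD12B (−0.02), SNORD12 (−0.14), and SNORD99 (0.57, adjusted p = 0.166) were not past the test. The 3 SNORD12 snoRNAs printed above are related sequences within 1 host, and their counts could share reads.

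**Figure D4:**
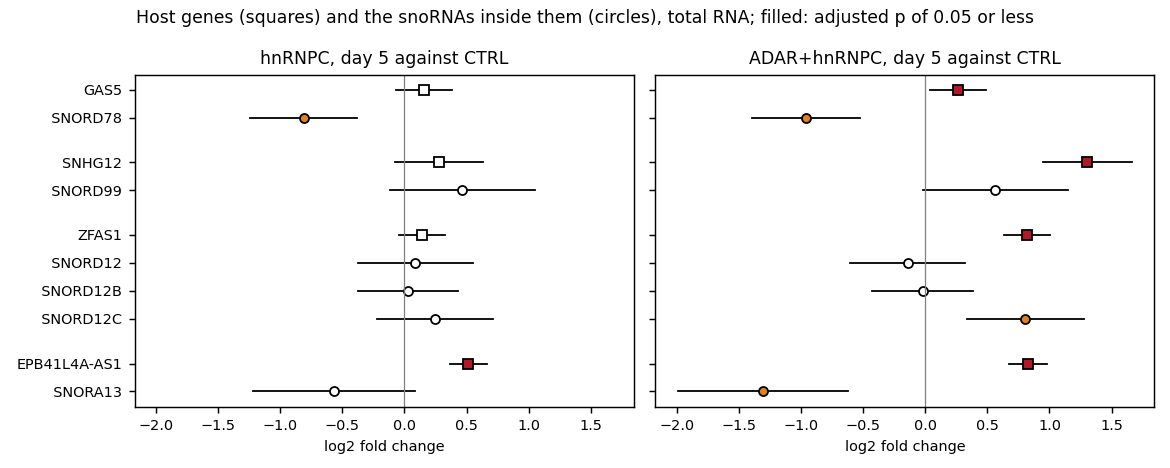
Log2 fold change against CTRL cells of day 5 (x axis) of 4 host genes and the 6 snoRNAs inside them that had a matched entry (y axis), with 95% intervals, for hnRNPC-targeted and ADAR+hnRNPC-targeted cells. Squares are hosts and circles are snoRNAs. With both genes targeted, SNORD78 lies at −0.96 beside GAS5 at 0.26, and SNORA13 at −1.31 beside EPB41L4A-AS1 at 0.83.

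Several members overlap genes on the opposite strand, and the sources used here do not state the strand setting of the counting, so that reads of partners cannot be told apart if strand was ignored. ZNFX1, an interferon-induced helicase gene whose exons overlap those of ZFAS1, rose from 59.3 ± 2.41 to 445 ± 84.5 CPM (SD, n = 3) on day 5 with both genes targeted (log2 fold change 2.91, edgeR adjusted p = 3.17e-24). With IFN-α it was also higher (1.35, adjusted p = 7.44e-14), whereas ZFAS1 was not past the test there. PRSS12, a serine protease gene that faces SNHG8, fell (−0.90, edgeR adjusted p = 3.75e-19) where SNHG8 rose. GAS5-AS1, a noncoding RNA that faces GAS5, fell (−0.54, edgeR adjusted p = 0.0347). TRNAU1AP facing SNHG12 (−0.09) and EPB41L4A facing EPB41L4A-AS1 (−0.01) were not past the test.

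The intron table holds introns of protein-coding neighbors, not of the members themselves. An intron of EPB41L4A at chr5:111478138-111498317, which covers part of EPB41L4A-AS1 on the opposite strand, was higher on day 5 with hnRNPC (log2 fold change 0.47, edgeR adjusted p = 0.000108) and with both genes targeted (0.76, adjusted p = 1.01e-08), as EPB41L4A-AS1 was. On day 5 the intron had means of 20.1 (CTRL), 27.9 (hnRNPC-targeted), and 34.2 CPM (ADAR+hnRNPC-targeted). Those of EPB41L4A-AS1 were close to them, 18.78, 26.85, and 33.37 CPM. How much of the intron's count came from reads of EPB41L4A-AS1 was not tested, so its rise is not a separate result. Of the 21798 introns tested, 29.9% and 50.6% were past the test in these comparisons. Introns of PRSS12 at chr4:119203399-119203985 and chr4:119204267-119216093, which overlap SNHG8, were lower with both genes targeted (−0.48, edgeR adjusted p = 0.0436, and −0.77, adjusted p = 0.00207).

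Editing of adenosine to inosine, the reaction of ADAR, was read at the study's sites on the members' own strand, as the share of reads with the edited base. The study chose these sites by their editing in its own samples. A site had to pass a minimum of editing in a sample with wild-type ADAR, which hnRNPC-targeted samples could supply and ADAR-targeted ones could not. Of the 160 sites at SNHG5, 69 lay in its annotated exons. SNHG5 (160 sites) was edited in 0.628, 0.754, and 1.49% of reads in CTRL cells of day 5, 3.23, 2.51, and 3.85% in hnRNPC-targeted, 0.211, 0.233, and 0.208% in ADAR-targeted, and 0.774, 0.910, and 0.972% in ADAR+hnRNPC-targeted cells. hnRNPC-targeted libraries lay above and ADAR-targeted ones below all CTRL libraries. The part of the site choice in this order, here and at the other loci, was not tested. With 3 libraries against 3, an exact 2-sided permutation test cannot give a p below 0.10, and these shares are given as a description that no other test was run on. These shares rest on 1716 to 4521 reads per library.

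Of the 178 sites at the GAS5 locus, 14 lay in its annotated exons, so that these shares do not describe the spliced GAS5 RNA. On day 5, the edited share was 0.914 ± 0.19% of reads in CTRL, 3.92 ± 0.765% in hnRNPC-targeted, 0.603 ± 0.112% in ADAR-targeted, and 2.6 ± 0.582% in ADAR+hnRNPC-targeted libraries (SD, n = 3). The last group lay between CTRL and hnRNPC-targeted cells, although ADAR RNA was itself higher there (log2 fold change 1.75). SNHG12 had 12 sites, edited in 0.602 ± 0.333% of reads in CTRL and 2.28 ± 0.118% with both genes targeted on day 5 (SD, n = 3). With hnRNPC alone targeted, the share on that day was 1.54 ± 0.345%. These SNHG12 shares rest on 339 to 756 reads per library, without a test. On day 4, its share was 0.62 ± 0.351% in CTRL and 0.257 ± 0.151% with both genes targeted. SNHG8 and EPB41L4A-AS1 had 8 sites each, with edited shares of 0 to 0.645% on day 5.

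In study 2, the edited shares at the GAS5 and SNHG5 loci in CTRL cells lay higher in cytosolic than in total RNA, without a test. Of the sites used there, 0 of 75 at GAS5 and 61 of 99 at SNHG5 lay in annotated exons of the host. GAS5 had 8.07 ± 0.833% in cytosolic and 3.28 ± 0.152% in total RNA of CTRL cells (SD, n = 2), and 2.15 ± 1.61% in cytosolic RNA of ADAR-targeted cells. SNHG5 had 6.21 ± 2.83% and 2.23 ± 0.249% in CTRL cells, and edited reads were at 0 of 500 and of 592 reads in the cytosolic libraries of ADAR-targeted cells. The cytosolic values of GAS5 rest on 99 to 366 reads per library. SNHG12 had 5 sites in study 2. Its edited share with both genes targeted was 0% in total and in cytosolic RNA. Study 2 was on day 4, when study 1 had 0.257% with both genes targeted and 0.62% in CTRL cells. The set of sites also differed from the 12 of study 1, so study 2 cannot check the day 5 rise of study 1. CTRL cells had 0% in total and 0.543% in cytosolic RNA. Total RNA after targeting of hnRNPC alone had 2.78%. These SNHG12 values rest on 121 to 224 reads per library.

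**Figure D5:**
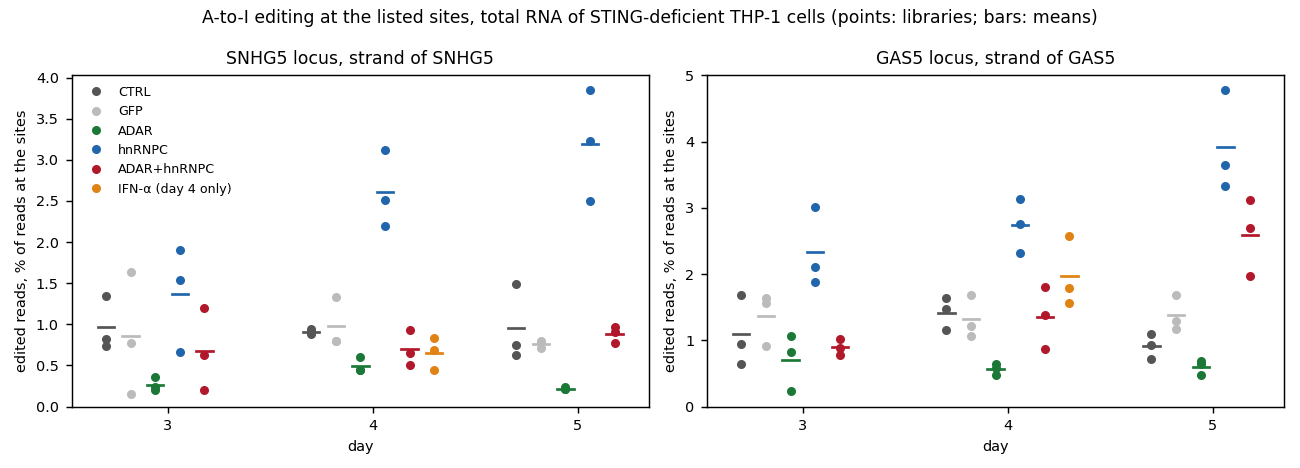
Share of edited reads (y axis, percent) at the sites of the SNHG5 and GAS5 loci, inside and outside exons, on the hosts' own strand by day (x axis) and gRNA group in study 1. Points are libraries and bars are group means. On day 5, hnRNPC-targeted cells have the highest means, 3.2% for SNHG5 and 3.92% for GAS5, and ADAR-targeted cells the lowest of that day, 0.218% and 0.603%. The sites were chosen by editing in samples with wild-type ADAR, and the part of that choice in this order was not tested.

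Other gene lists were counted beside the members, and their counts on day 5 can be set against the 34.5% of all genes that were higher and the 39% that were lower. Of 28 protein-coding snoRNA hosts, mostly ribosomal protein and translation factor genes, 26 were lower and 1 higher in ADAR+hnRNPC-targeted cells of day 5 (median log2 fold change −0.78), among them RPS3 (−1.25), RPL3 (−1.05), and RACK1 (−0.93). Of 16 other noncoding hosts tested, 4 were higher and 5 lower (median 0.01), with SNHG16 (−1.20), DANCR (−1.21), and SNHG14 (−0.51) among the lower. Of 11 genes for proteins of box C/D and H/ACA particles or their assembly, 10 were lower, among them the pseudouridine synthase gene DKC1 (−0.71), its partner NHP2 (−0.83), and the assembly helicase RUVBL1 (−0.70). In cytosolic RNA of study 2, 8 of the 28 protein-coding hosts were lower and 1 was higher (median −0.35). The share of all genes that were lower there is not given, so that the 8 cannot be set against it.

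Genes that act in NMD were found in both directions. Of 19 tested, 9 were higher and 4 lower in ADAR+hnRNPC-targeted cells of day 5 (median 0.18), where 34.5% of all genes were higher and 39% lower. SMG5, a factor that releases UPF1 from its phosphorylated state, was at 0.71, the exonuclease XRN1 at 1.60, and the exon junction helicase EIF4A3 at −0.76. The study also treats SMG5 RNA as a target of NMD itself. In cytosolic RNA of ADAR+hnRNPC-targeted cells in study 2, 6 were higher, where 20.1% of all genes tested were higher, and 3 were lower. The share of all genes lower there is not given, so that the 3 cannot be set against it. Of 7 stress mRNAs that are also known NMD substrates, 6 were higher on day 5 of study 1 (median 1.71), including ATF3 (5.35), GADD45A (2.40), and GADD45B (1.89), and 5 of 7 in the cytosol of study 2 (median 1.82), where 20.1% of all genes were higher. Of 12 targets of the stress transcription factor ATF4, 9 were higher and 1 lower on day 5 (median 1.74), with TRIB3 (3.20), PPP1R15A (2.72), and CEBPB (1.57), and 10 of 12 were higher in the cytosol of study 2.

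In ADAR-targeted cells of study 2, where 7 members and 16.1% of all genes tested were higher in the cytosol, 4 of the 7 stress mRNAs (median 1.22) and 8 of the 12 ATF4 targets (median 0.76) were higher as well. In ADAR-targeted cells of study 1 on day 5, where edgeR called 0 members without a block and 4.45% of genes tested were higher, 2 of the stress mRNAs (median 0.31) were higher. The part of the stress response in the members' values was not tested.

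Over the 16 groups of study 1, the members' group means followed each other unevenly. Pearson's r of log2 CPM was 0.942 for ZFAS1 and EPB41L4A-AS1, 0.866 for GAS5 and ZFAS1, 0.847 for SNHG8 and SNHG12, and −0.371 for SNHG1 and SNHG5, values that are descriptive because the groups share clone and library preparation. Genes whose means were most like the mean score of the 8 were TRMT10B (r = 0.959), CCDC122 (0.956), ZNF14 (0.952), MRRF (0.946), STAMBP (0.944), LRRFIP1P1 (0.944), CCT6P3 (0.943), FNBP4 (0.942), CHN2 (0.941), and TXNL4B (0.941).

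The order of the group means also differed between members. ADAR+hnRNPC-targeted cells of day 5 were the highest of the 16 groups for GAS5, SNHG8, SNHG12, SNHG15, ZFAS1, and EPB41L4A-AS1. For GAS5 their libraries overlapped those of the next group, hnRNPC-targeted cells of day 4 (271 ± 16 and 261 ± 30.1 CPM, SD, n = 3), and for SNHG8 those of ADAR+hnRNPC-targeted cells of day 4 (86.3 ± 4.21 and 79.8 ± 4.61 CPM), whereas for the other 4 the first 2 groups did not overlap. SNHG1 was highest in hnRNPC-targeted cells of day 3 and SNHG5 in CTRL cells of day 5. The share of all genes that were highest in ADAR+hnRNPC-targeted cells of day 5 is not given, so these orders are a description of the members. Against CTRL cells of that day, 34.5% of genes tested were higher there and 39% were lower.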

How the data were processed

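RNA-seq of 48 libraries (study 1, 16 groups of 3) and 18 libraries (study 2, 9 groups of 2) was analyzed. The authors prepared libraries with a stranded total RNA kit after depletion of ribosomal RNA, aligned reads with STAR 2.5.4a to GRCh37, and deposited raw counts of uniquely mapped reads per gene (GENCODE exons), per intron, and per editing site, from which all values here start. The strand setting of the counting is not given in the sources used here.

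Counts were tested with edgeR 4.0.16 (R 4.3.3, quasi-likelihood test, TMM factors, 1 coefficient per group, all libraries of a study), for genes of an average log2 CPM of at least 0.5 and introns of at least 1, with Benjamini-Hochberg adjustment over all features tested. SE is the log2 fold change over the root of F, and 95% intervals are 1.96 SE. limma 3.58.1 (voom) and DESeq2 1.42.0 were alternatives. The fit was tested on simulated data with 200 changed genes. The study used voom, with the same filters and a 2-fold threshold.

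Samples were grouped by their labels. Replicate numbers recur in all groups. Deviations of same-numbered libraries correlated at a median of 0.301 (−0.169 to 0.748) in study 1 and 0.153 (−0.337 to 0.445) in study 2. The labels tie no number to an experiment, so same-numbered libraries were not taken as pairs. The blocked fit is given where it changes a call of a member. No 2 libraries agreed within sampling noise. The members and lists were chosen with earlier results of these data known. Of each other list, the text gives counts and up to 3 genes with the smallest adjusted p on day 5, and it names the 10 genes most correlated with the members. SNHG4, RBM8A, and PECAM1 had no matched entry. The loci come from a GENCODE lift to GRCh37, and RefSeq sequences from GRCh38.p14 for starts. Total counts of at least 95107690 per library in study 1 and 49666958 in study 2 gave each member at least 419 counts, and intervals on shares of reads were not computed. Of the genes analyzed, 1 is not reported here.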

Additional observations from a re-analysis of the deposited data

Results flagged for a closer look

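Responses that differed between conditions by a test of the difference itself (edgeR, log2 scale) are listed with their values. The interaction of ADAR and hnRNPC targeting on day 5 was 0.73 for SNHG12, 0.57 for ZFAS1, 0.49 for SNHG15, and 0.27 for SNHG8. The ADAR+hnRNPC response was larger on day 5 than on day 3 by 1.17 for SNHG12, 0.87 for SNHG15, 0.56 for ZFAS1, 0.53 for EPB41L4A-AS1, and 0.28 for SNHG8. The hnRNPC response of SNHG5 was smaller on day 5 than on day 3, with a difference of −0.29. In study 2, the ADAR+hnRNPC response was larger in cytosolic than in total RNA by 1.15 for SNHG12 and 0.97 for SNHG1. Groups of 2 or 3 libraries were too small to look for single libraries that stand apart.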

How the results depend on the processing

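No member's log2 fold change that was past the test changed sign under any alternative. The counts of higher members on day 5 with both genes targeted (6), against ADAR-targeted cells (5), and in the cytosol of study 2 (7) moved by over 1.5 times only where a 2-fold change was also asked for. Depth was not limiting for the members, whereas SNORA13 rested on as few as 32 counts, and groups of 2 libraries leave study 2 least certain.

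Also asking for a change of at least 1 on the log2 scale left 2 higher members in cytosolic RNA of ADAR- and of ADAR+hnRNPC-targeted cells. It left 1 for ADAR+hnRNPC on day 5 against CTRL and against ADAR, for that response between days, and for it between cytosol and total RNA. It left 0 for hnRNPC and ADAR+hnRNPC on days 3 and 4 (higher and lower), ADAR+hnRNPC against ADAR on days 3 and 4, hnRNPC on day 5, the interaction, IFN-α (lower), the hnRNPC response between days, CTRL between days, the 3 total RNA comparisons of study 2, cytosolic against total RNA, and cytosolic against nuclear RNA (higher).

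With library totals and no factor, 0 members were lower on day 3 for hnRNPC, ADAR+hnRNPC, and ADAR+hnRNPC against ADAR, 5 were higher for ADAR+hnRNPC against ADAR on day 4, 2 for hnRNPC in total and in cytosolic RNA of study 2, 1 in cytosolic against total RNA, and 1 for the ADAR response between them. With DESeq2's size factors, 1 was higher with IFN-α and 2 for hnRNPC in total RNA of study 2. With DESeq2's test, 4 were higher and 0 lower for hnRNPC on day 3, 2 had a smaller hnRNPC response on day 5, and in study 2 there were 3 for hnRNPC in total RNA, 2 in cytosolic RNA, and 1 for the ADAR response between compartments. With limma-voom, there were 2 for hnRNPC in total RNA of study 2. Without the filter on low counts, there were 2 for hnRNPC on day 5, 1 for ADAR on day 5, 2 higher with IFN-α, 2 smaller hnRNPC responses, 1 lower in CTRL between days, 2 for hnRNPC in total RNA of study 2, and 1 for the ADAR response.

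With only the groups compared in the fit, there was 1 higher member for ADAR+hnRNPC on day 3, 0 lower against ADAR on day 3, 2 for hnRNPC on day 5, 0 lower with IFN-α, 2 smaller hnRNPC responses, 1 lower in CTRL between days, and in study 2 0, 1, and 3 for hnRNPC, ADAR, and ADAR+hnRNPC in total RNA and 1 for the ADAR response. With GFP cells as control, hnRNPC gave 4 higher and 0 lower members on day 3, 1 lower member on day 4, and on day 5 2 higher ones and 1 lower one, ADAR gave 1 higher on day 5, and ADAR+hnRNPC 0 lower on day 3.

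With the replicate number as a block (replicate block), hnRNPC gave 1 lower member on day 4 and, on day 5, 2 higher ones and 1 lower one, ADAR 1 higher on day 5, IFN-α 1 higher, the hnRNPC response 2 smaller, CTRL 1 lower between days, and hnRNPC 2 in total RNA of study 2. Of the pairs of same-numbered libraries from different groups, 69 of 93 in study 1 and 54 of 72 in study 2 were best correlated. In 74 and 44 pairs the correlation was above 0.1. In groups of 2, the libraries deviate by equal and opposite amounts, so the pairs of study 2 are not independent. The labels do not say that a number marks 1 experiment across groups. The block also called SNHG5 for hnRNPC (0.19) and for ADAR+hnRNPC against ADAR (0.18) on day 3 and for ADAR+hnRNPC on day 4 (0.16). It called ZFAS1 for the hnRNPC response (−0.29) and SNHG15 in CTRL between days (−0.25). It called GAS5 for ADAR+hnRNPC against ADAR on day 5 (0.25) and for hnRNPC in total RNA of study 2 (0.46). It ended no call and changed no other count by over 1.5 times.

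Leaving out 1 library in turn gave between 0 and 1 lower members for hnRNPC on day 3, 1 and 2 higher and 0 and 1 lower for ADAR+hnRNPC on day 3, 0 and 3 higher and 0 and 1 lower for ADAR+hnRNPC against ADAR on day 3, 2 and 4 for hnRNPC on day 4, 2 and 4 for the interaction on day 5, 0 and 1 higher with IFN-α, 0 and 2 smaller hnRNPC responses, and 1 and 3 higher and 0 and 1 lower in CTRL between days. In study 2 it gave between 0 and 4 for hnRNPC, 1 and 8 for ADAR, and 2 and 6 for ADAR+hnRNPC in total RNA, 4 and 5 for ADAR in the cytosol, and 0 and 3 for the ADAR+hnRNPC response between compartments. In groups of 2 the library left was taken to vary like the other groups. The cause of these changes was not tested. Apart from leaving out libraries, 473 counts of members stayed within 1.5 times, 36 rose, and 39 fell.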

Other observations

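Libraries with the same replicate number lay on the same side of their groups for several members of study 1. On day 3, replicate 3 was the lowest library in all 5 groups for GAS5, SNHG1, SNHG8, SNHG12, and SNHG15, whereas replicate 1 was the highest in all 5 for ZFAS1. On day 4, replicate 1 was the highest in all 6 groups for SNHG1, SNHG12, and SNHG15. On day 5, replicate 1 was the highest in all 5 groups for SNHG15 and EPB41L4A-AS1. The labels do not say what a replicate number marks.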
